A study of Mus musculus with 9 samples.

Results

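The genes described here belong to 7 solute carrier families, namely *Slc1a*, *Slc3a*, *Slc6a*, *Slc7a*, *Slc36a*, *Slc38a* and *Slc43a*, in mouse myeloma cells. These families carry amino acids, and some of their genes carry other substrates, such as the dopamine transporter gene *Slc6a3*. Members were every gene whose symbol is a family name followed by a number, which gave 61 of the 53077 genes listed. The rule used no measured value. RNA was sequenced from 5TGM1 cells, a mouse multiple myeloma line made to express Cas9 constitutively, in 3 groups with 3 biological replicates each. Control cultures, labelled WT, carried a Rosa26 gRNA, which targets a locus commonly used as a neutral site. The second group carried an *Slc2a1* gRNA, and the third carried 5 gRNAs, aimed at *Slc2a1* and also at *Slc2a3*, *Slc2a5*, *Slc2a6* and *Slc2a8*, written below as the 5 gRNAs.

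*Slc2a1* encodes the glucose transporter GLUT1. All 3 groups share Cas9 and lentiviral gRNA delivery. The cultures are populations and not clones, and the deleted ones still contain unedited cells, so a change in some cells and a smaller change in all cells cannot be told apart. For the 5 gRNAs a line was first made with the gRNAs other than *Slc2a1*, sorted for its reporters and expanded, so the added gRNAs and this history cannot be told apart either. The RNA of the targeted genes gave no uniform check of the labels, and an edited gene can still be transcribed. The paper checked *Slc2a1* gRNA cultures by GLUT1 staining and labelled glucose uptake, and 5 gRNA cultures by sequencing the edited sites. By another test, it reports a significant fall of *Slc2a1* RNA in deleted cultures and no noticeable change in other *Slc2* members. The values below, from edgeR, match that only in part. The log2 fold change of *Slc2a1* against control was -0.21 in cultures carrying its gRNA alone (adjusted p = 0.544) and -0.66 with the 5 gRNAs (adjusted p = 0.029). With the 5 gRNAs *Slc2a8* (-1.22, adjusted p = 0.000309) and *Slc2a6* (-0.67, adjusted p = 0.0366) were also lower, *Slc2a5* was higher (2.65, adjusted p = 0.00478), and *Slc2a3* differed by 0.27 (adjusted p = 0.259). Estimated counts summed to between 21838805 and 30537105 per sample, of which the 61 members took 0.585 to 0.794%. Mitochondrial genes took 4.84 to 11.1%, most in replicate 1 of the 5 gRNAs. Of 8 plasma cell markers, 7 had a mean of at least 1 TPM, and none of the earlier B cell, T cell, myeloid and erythroid markers did.

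Amino acids cross membranes through carriers of several families that differ in substrate and in coupling. The *Slc7* light chains exchange one amino acid for another and reach the plasma membrane only when bound to a heavy chain of the *Slc3* family, whereas *Slc1*, *Slc6* and many *Slc38* carriers use the sodium gradient, and *Slc36* carriers use protons. Plasma cells make and secrete large amounts of antibody and so need a steady supply of amino acids. When amino acids run short, the kinase GCN2 and the transcription factor ATF4 raise the transcription of many of these carriers, in part through a short promoter sequence, the C/EBP-ATF response element.

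Promoter sequences are shown for 3 members on which the results below turn. The response element was searched as TGATGNAA on both strands of the 250 bases before each start in the RefSeq promoters of GRCm38.p6, which matched 43 of the 61 members. Letters that match are in capitals. Among the expressed members that were searched, *Slc7a11* and *Slc7a7* held a match. The expressed *Slc1a5*, *Slc7a5* and *Slc7a4* had no promoter to search. *Slc1a4* is the member expressed in control cells with the largest fold change among those called with the 5 gRNAs.
Slc7a11, chr3:50443614-50443863, minus strand: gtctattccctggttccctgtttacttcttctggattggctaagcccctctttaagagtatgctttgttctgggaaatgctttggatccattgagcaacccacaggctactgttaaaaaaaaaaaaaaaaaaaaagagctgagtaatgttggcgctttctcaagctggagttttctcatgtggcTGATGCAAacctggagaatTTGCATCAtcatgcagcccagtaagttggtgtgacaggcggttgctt
Slc7a7, chr14:54417945-54418194, minus strand: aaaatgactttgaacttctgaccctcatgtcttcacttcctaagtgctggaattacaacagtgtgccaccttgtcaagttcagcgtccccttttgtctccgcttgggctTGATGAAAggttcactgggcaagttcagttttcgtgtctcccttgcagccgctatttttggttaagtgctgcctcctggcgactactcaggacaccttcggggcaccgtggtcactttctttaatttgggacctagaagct
Slc1a4, chr11:20332714-20332963, minus strand: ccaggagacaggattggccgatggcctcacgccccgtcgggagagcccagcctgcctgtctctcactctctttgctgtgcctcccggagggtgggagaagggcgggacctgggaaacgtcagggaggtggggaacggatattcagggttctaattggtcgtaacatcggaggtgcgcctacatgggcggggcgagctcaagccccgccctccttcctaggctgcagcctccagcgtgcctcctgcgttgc

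The *Slc7a11* window holds the letters once on each strand, starting 66 and 47 bases before the start, as TGATGCAA and as its reverse complement TTGCATCA. The *Slc7a7* window shown holds TGATGAAA, starting 141 bases before the start, and the window of another *Slc7a7* start holds TGATGCAA. The *Slc1a4* window holds none. A match was found in 3 of the 43 members, the other being *Slc6a21*, against 3.91% of 27025 genes and 3.45% of 32851 promoters of the same length. Among the genes tested for a change, the letters were present in 2 of 18 members and in 2.62% of 9871 genes. Of the 9 members called with the 5 gRNAs, 7 had a promoter in the table, and none of these held the letters in this window. Bases after the start or further before it were not searched, so the element may lie there. A match describes the sequence and is no evidence of binding.

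Which amino acid carriers do control myeloma cells express? Levels are given as TPM, a measure per transcript length and per library, and a member was taken as expressed at a control mean of at least 1 TPM. By this minimum 19 of the 61 members were expressed. They were both *Slc3* genes, 6 of 15 *Slc7* genes, 5 of 11 *Slc38* genes, 2 of 7 *Slc1* genes, 2 of 3 *Slc43* genes, 1 of 4 *Slc36* genes and 1 of 19 *Slc6* genes. The 5 most abundant, *Slc38a6*, *Slc3a2*, *Slc7a5*, *Slc38a10* and *Slc38a2*, held 89.7% of the summed TPM of all members. The median of the 19 was 15.0 TPM. The minimum fell in a gap, with *Slc36a1* at 2.04 TPM just above it and *Slc7a3*, a cationic amino acid carrier, at 0.801 TPM just below.

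*Slc38a6* (chr12:73286779-73354049 in GRCm38, plus strand), a less studied member of the *Slc38* family, stood first with 1137, 909 and 1084 TPM in the 3 control replicates. These came from 0.343 to 0.404% of all estimated counts, and its mean of 1044 ± 119 TPM (SD, n = 3) lay at percentile 99.8 of all genes. Its exons overlap no other gene in GENCODE M21. *Slc38a6* alone made up 55.3% of the members' summed TPM in control cells. Its TPM depends on which transcripts the reads were assigned to, since the deposited length of the gene ran from 2924 to 3521 bases across samples.

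The heterodimer of the heavy chain CD98 and the light chain LAT1 came next. *Slc3a2* (chr19:8706882-8723369, minus strand), which encodes CD98, had 252, 261 and 360 TPM, and *Slc7a5* (chr8:121881150-121907694, minus strand), which encodes LAT1, the exchanger of large neutral amino acids, had 185, 188 and 268 TPM. The replicates of these neighbours in the order overlap. *Slc3a2* stood 3.58 times below *Slc38a6*, with no overlap. Among the other light chains, *Slc7a6* and *Slc7a7*, which exchange cationic for neutral amino acids, averaged 33.1 ± 6.38 and 11.3 ± 1.53 TPM (SD, n = 3), and the cystine-glutamate exchanger *Slc7a11* averaged 8.98 ± 1.73 TPM (SD, n = 3). *Slc7a6* had 30.1, 28.7 and 40.4 TPM in its replicates. The other heavy chain, *Slc3a1*, averaged 2.26 ± 0.935 TPM (SD, n = 3). Of its exonic bases, 26.5% overlap the more abundant *Prepl* on the other strand, and reads within that overlap cannot be told apart by strand. Its usual partner *Slc7a9* had at most 2 counts in a sample.

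Outside the heavy and light chains, the next most abundant members came from the *Slc38*, *Slc1*, *Slc6* and cationic groups. *Slc38a10*, an *Slc38* member of less clear function, had 78.7, 86.7 and 108 TPM. *Slc38a2*, which encodes the system A carrier SNAT2, had 44.7, 47.8 and 69.4 TPM, below every replicate of *Slc38a10*. *Slc1a5*, which encodes the glutamine exchanger ASCT2, had 43.9, 32.8 and 50.1 TPM and overlapped *Slc38a2*. The glycine transporter gene *Slc6a9*, the sole expressed *Slc6* member, had 18.5, 16.2 and 30.5 TPM. *Slc38a7*, which encodes a lysosomal carrier of glutamine and asparagine, had 16.9, 16.8 and 20.04 TPM, and the arginine and lysine carrier *Slc7a1* had 13.2, 11.9 and 19.9 TPM. *Slc6a9*, *Slc38a7* and *Slc7a1* overlapped one another, so their order is within the replicate spread.

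The remaining expressed members had means between 2.04 and 13.5 TPM. *Slc1a4*, which encodes the serine and alanine carrier ASCT1, averaged 13.5 ± 2.31 TPM (SD, n = 3). *Slc7a4*, a relative of the cationic carriers, averaged 8.504 ± 0.831 TPM (SD, n = 3), and the neutral amino acid carriers *Slc43a1* and *Slc43a2* averaged 7.59 ± 3.35 and 2.89 ± 0.975 TPM (SD, n = 3). The lysosomal arginine sensor *Slc38a9* averaged 4.96 ± 0.178 TPM (SD, n = 3). The proton-coupled *Slc36a1* had 1.69, 1.52 and 2.90 TPM. Of the 42 members below the minimum, 36 had a control mean under 0.1 TPM, and 14 had 0 counts in all 9 samples. Those 14 include the glial glutamate carrier *Slc1a3*, the system A carrier *Slc38a4*, the system N carrier *Slc38a5*, the dopamine transporter *Slc6a3* and the broad-range *Slc6a14*. *Slc38a1*, a further system A carrier, averaged 0.124 TPM in control cells. *Slc7a3* and *Slc38a3* reached a mean of 1 TPM in a deleted population, so 21 members were expressed in at least 1 group.

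**Figure D1:**
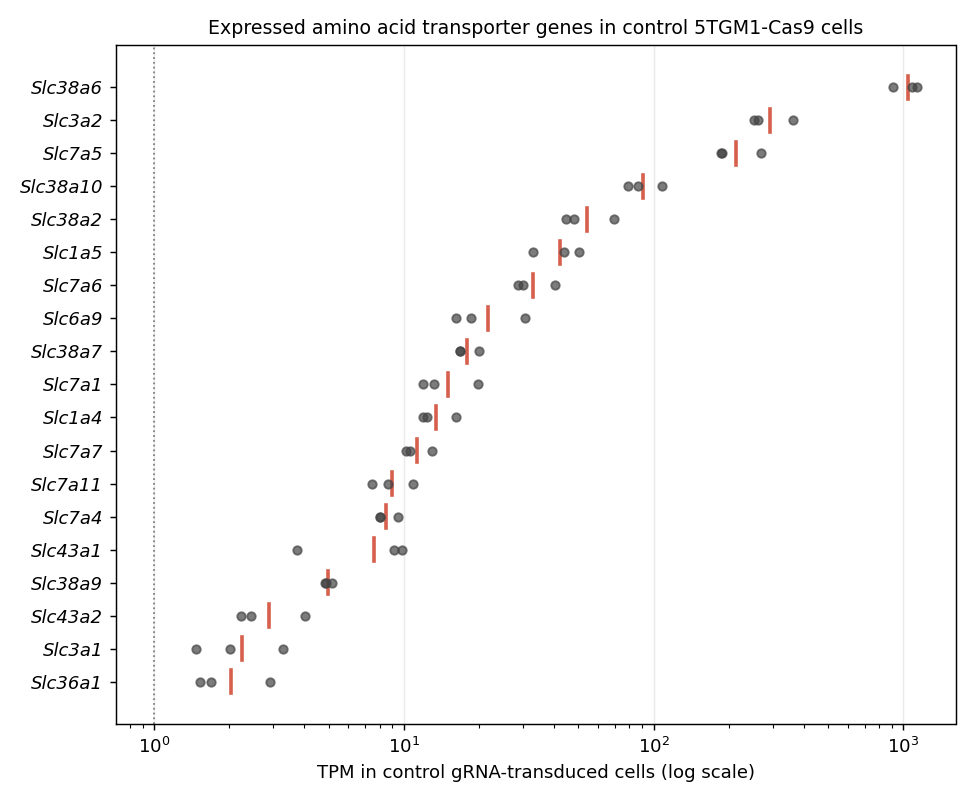
Levels of the 19 expressed amino acid transporter genes in the control gRNA cultures, in TPM on a log axis, with 1 gene per line, a grey point per replicate and a red bar at the mean of 3 replicates. The dotted line marks 1 TPM, and the means run from 2.04 TPM for *Slc36a1* to 1044 TPM for *Slc38a6*.

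For the comparisons, values are CPM scaled by TMM factors (scaled CPM), which are not corrected for length and so compare samples and not genes, the scale on which edgeR's quasi-likelihood test works. Fold changes are on the log2 scale, p-values are adjusted by Benjamini-Hochberg over 13834 genes, and the threshold was 0.05. Of the 61 members, 26 were tested, the 19 expressed ones included. The other 35 had at most 14 counts in any sample and did not pass the filter on low counts, so a change in them was not tested in this fit. This depth limits what could be detected in them. In 4 tested members some group had no sample above the filter on low counts. These were *Slc38a3*, carried by the 5 gRNA samples, *Slc1a1* and *Slc6a6*, carried by the deleted populations, and *Slc38a1*, which had no 5 gRNA sample above it. Counts of calls are therefore also given without these 4, whereas medians and counts of members without overlap include them.

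With the 5 gRNAs, *Slc1a1*, *Slc1a4*, *Slc1a5*, *Slc38a2*, *Slc38a3*, *Slc3a2*, *Slc6a9* and *Slc7a1* were higher than in control cells and *Slc38a10* was lower. Of 26 tested members 9 were called, 8 higher and 1 lower, where 15.9% of all genes were called, 8.49% higher and 7.44% lower. Without the 4 members named above the count was 7 of 22. The members' median log2 fold change was 0.128, against 0.00717 over all genes tested. Scaled counts of the groups did not overlap for 13 of the 26 members, where 34.2% of all genes had no overlap. These 13 include *Slc1a1* and *Slc38a3*, which entered the test only through groups where they are high. Without the low count filter 12 members were called, 9 higher and 3 lower, adding *Slc7a11* as higher and *Slc3a1* and *Slc7a14* as lower, with 2751 calls over all genes against 2204.

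*Slc1a4* (chr11:20302180-20332713, minus strand) rose 2.19-fold with the 5 gRNAs. Its scaled CPM was 53.5, 54.3 and 60.2 in control replicates 1, 2 and 3, 67.1, 63.0 and 73.6 with the *Slc2a1* gRNA, and 107, 124 and 137 with the 5 gRNAs. The 5 gRNA samples lay above all others, and the *Slc2a1* gRNA samples lay just above the controls. The log2 fold change against control was 1.13 ± 0.10 (SE, edgeR adjusted p = 9.2e-05), and against the *Slc2a1* gRNA it was 0.85 ± 0.10 (SE, edgeR adjusted p = 0.00168). With the *Slc2a1* gRNA alone the log2 difference from control was 0.28 ± 0.10 (SE, adjusted p = 0.142). Both calls held without any 1 of the 9 libraries, and by limma on log2(TPM + 1) both were lost (adjusted p = 0.0517 against control and 0.22 against the *Slc2a1* gRNA). On log2(TPM + 0.1) the call against the *Slc2a1* gRNA was lost as well (adjusted p = 0.17).

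*Slc38a3* (chr9:107650634-107669530, minus strand), which encodes the system N glutamine carrier SNAT3 known from liver, kidney and brain, was found almost entirely in the 5 gRNA samples. It had 0, 1 and 1 counts in control replicates, 0, 0 and 0 with the *Slc2a1* gRNA, and 106, 85 and 127 with the 5 gRNAs. In TPM the 5 gRNA samples were at 1.35, 1.55 and 2.12, so the gene remained among the least abundant of those expressed. The ratio to control was 185, from 318 against 2 counts, with a counting interval of 50.7 to 1530. It was at least 99.5-fold higher than with the *Slc2a1* gRNA, taking 3 counts over the group as the floor. Since *Slc38a3* entered the test only through the samples where it is high, its adjusted p-values are not given as support.

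The glycine transporter *Slc6a9* (chr4:117834506-117875198, plus strand) and the cationic carrier *Slc7a1* (chr5:148327410-148399904, minus strand) rose by like amounts. *Slc6a9* had a scaled CPM of 63.5, 57.8 and 74.3 in control, 96.3, 77.7 and 77.4 with the *Slc2a1* gRNA, and 110, 107 and 140 with the 5 gRNAs. The 3 groups did not overlap. Against control the log2 fold change was 0.87 ± 0.13 (SE, edgeR adjusted p = 0.00149) with the 5 gRNAs and 0.37 ± 0.13 (SE, adjusted p = 0.116) with the *Slc2a1* gRNA. *Slc6a9* shares 30.2% of its exonic bases with genes on the other strand, of which *B4galt2* had 19 to 61 counts and *Ccdc24* 10 to 51 counts per sample, with log2 differences of 0.46 (adjusted p = 0.505) and -1.003 (adjusted p = 0.193). *Slc7a1* had a scaled CPM of 106, 93.6 and 133 in control, 174, 122 and 150 with the *Slc2a1* gRNA, and 149, 204 and 255 with the 5 gRNAs. The *Slc2a1* gRNA samples overlapped both other groups. Its log2 fold change with the 5 gRNAs was 0.87 ± 0.17 (SE, edgeR adjusted p = 0.00569). Both genes were called in each fit that left out 1 library. By limma on log2(TPM + 1) and log2(TPM + 0.1) both calls were lost, with adjusted p up to 0.2 for *Slc6a9* and 0.213 for *Slc7a1*.

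*Slc1a5* (chr7:16781340-16798274, plus strand) was the expressed member that rose in both deleted populations. It had a scaled CPM of 116, 92.1 and 108 in control, 184, 160 and 130 with the *Slc2a1* gRNA, and 163, 150 and 185 with the 5 gRNAs. Every deleted sample lay above every control sample, and the deleted populations overlapped. Log2 fold changes were 0.59 ± 0.14 (SE, edgeR adjusted p = 0.0307) with the *Slc2a1* gRNA and 0.66 ± 0.13 (SE, edgeR adjusted p = 0.00749) with the 5 gRNAs. The populations differed by 0.08 on the log2 scale, with a 95% interval of -0.216 to 0.368 and an adjusted p of 0.808. The call with the 5 gRNAs was lost without control replicate 2 (adjusted p = 0.0529) and without replicate 3 of the 5 gRNAs (adjusted p = 0.0531). That with the *Slc2a1* gRNA was lost without any 1 control replicate or *Slc2a1* gRNA replicate 1 or 2 (edgeR adjusted p = 0.129 to 0.205). Total count scaling lost it as well (edgeR adjusted p = 0.061).

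*Slc1a1* (chr19:28835049-28913960, plus strand), which encodes a carrier of glutamate, aspartate and cysteine, was higher in both populations at levels under 1 TPM. It had 4, 3 and 8 counts in control, 37, 15 and 24 with the *Slc2a1* gRNA, and 19, 22 and 57 with the 5 gRNAs. Every deleted sample had more counts than every control sample. No control sample was above the filter on low counts, so the gene entered the test only through the populations where it is high, and its fitted log2 fold changes of 2.78 ± 0.60 and 2.92 ± 0.59 (SE) are a description. The call with the 5 gRNAs was lost without their replicate 3 (adjusted p = 0.0616). Of the gene's exonic bases, 31.9% overlap a gene on the other strand, and reads within that overlap cannot be told apart by strand.

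**Figure D2:**
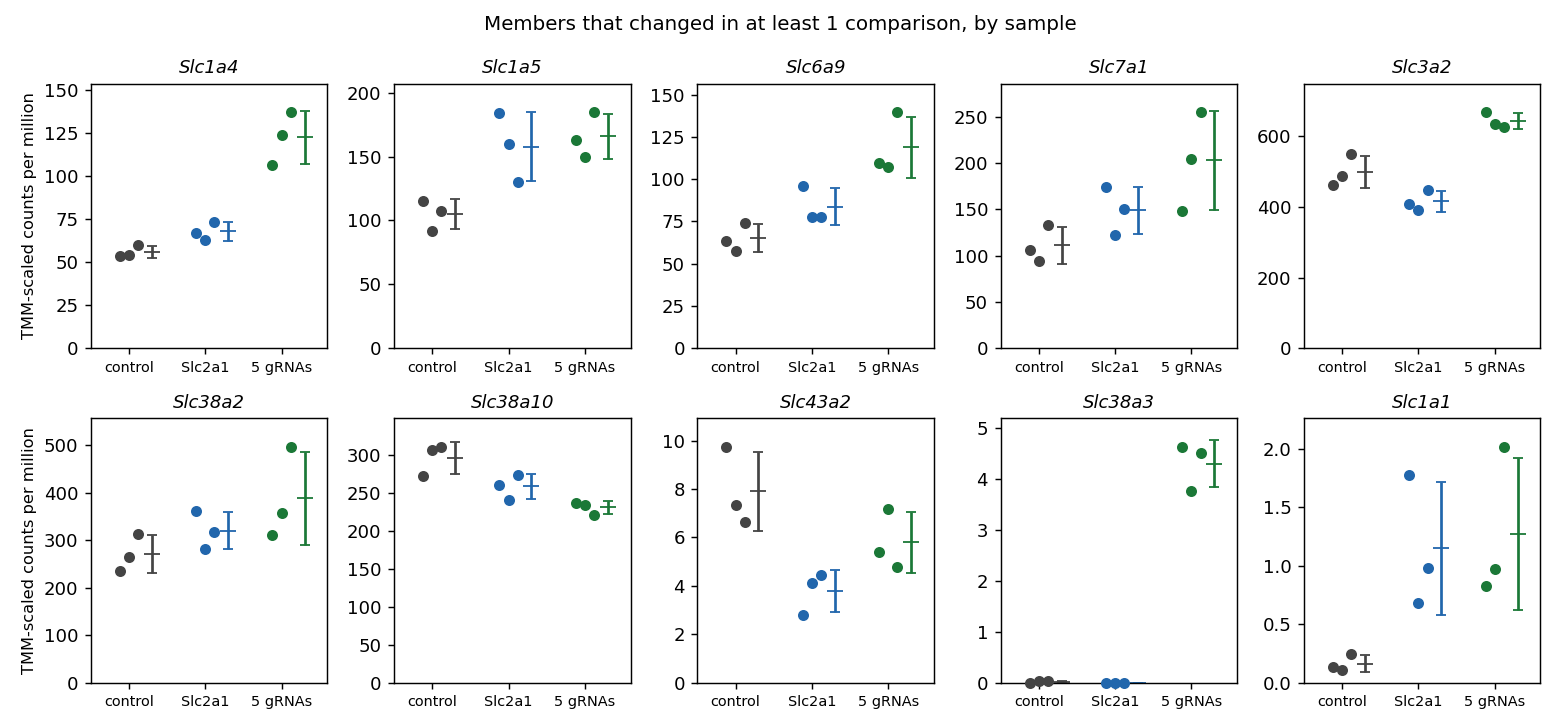
Scaled CPM of the 10 members called in at least 1 comparison, with a point per replicate for control gRNA (grey), *Slc2a1* gRNA (blue) and 5 gRNA (green) cultures, and the mean with SD of 3 replicates beside them. Each axis starts at 0, and *Slc38a3* lies near 0 in all but the 5 gRNA samples, where it reaches 3.77 to 4.63.

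*Slc3a2* rose with the 5 gRNAs and lay below control with the *Slc2a1* gRNA, where it did not pass the test. Its scaled CPM was 461, 488 and 549 in control, 408, 392 and 449 with the *Slc2a1* gRNA, and 669, 635 and 627 with the 5 gRNAs. The 3 groups did not overlap. The log2 difference from control was -0.26 ± 0.11 (SE, adjusted p = 0.191) with the *Slc2a1* gRNA and 0.37 ± 0.11 (SE, edgeR adjusted p = 0.0423) with the 5 gRNAs. Between the deleted populations the log2 fold change was 0.63 ± 0.11 (SE, edgeR adjusted p = 0.0147). The call against control was lost without each of 8 libraries (adjusted p = 0.0506 to 0.268) and held only without *Slc2a1* gRNA replicate 1 (adjusted p = 0.0369), and that between the populations was lost without *Slc2a1* gRNA replicate 2 (adjusted p = 0.116) or 3 (adjusted p = 0.0536). Total count scaling lost the call against control (adjusted p = 0.0818). Fitting only the groups compared lost both calls (adjusted p = 0.068 and 0.107) but called the lower level with the *Slc2a1* gRNA (adjusted p = 0.0455).

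The 4 expressed light chains, *Slc7a5*, *Slc7a6*, *Slc7a7* and *Slc7a11*, were not called in any comparison by edgeR as described above, and *Slc7a11* was called in some alternative fits. *Slc7a5* had a scaled CPM of 705, 732 and 858 in control, 822, 698 and 751 with the *Slc2a1* gRNA, and 839, 939 and 995 with the 5 gRNAs. Its log2 difference with the 5 gRNAs was 0.28 ± 0.12 (SE, adjusted p = 0.144), and the groups overlapped. *Slc7a11*, whose promoter holds the response element letters, differed by 0.47 ± 0.16 (SE, adjusted p = 0.0564) with the 5 gRNAs and by 0.07 ± 0.16 (SE, adjusted p = 0.84) with the *Slc2a1* gRNA. The former difference was called by DESeq2, in the fit restricted to both groups, when low counts were not filtered, and without *Slc2a1* gRNA replicate 1 or replicate 1 of the 5 gRNAs. Between the deleted populations it differed by 0.40 ± 0.16 (SE, adjusted p = 0.182) and was called when low counts were not filtered and without replicate 1 of the 5 gRNAs. *Slc7a7*, the other expressed member found to hold those letters, differed by -0.21 ± 0.14 (SE, adjusted p = 0.345) with the 5 gRNAs. *Slc7a6* had 82.3, 87.6 and 96.5 in control, 76.6, 75.1 and 87.5 with the *Slc2a1* gRNA, and 80.3, 81.2 and 77.0 with the 5 gRNAs. Its 5 gRNA samples lay below the controls, but the log2 difference of -0.15 ± 0.11 (SE, adjusted p = 0.344) did not pass.

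Among the *Slc38* members, *Slc38a2* rose and *Slc38a10* fell with the 5 gRNAs, both close to the threshold. *Slc38a2* (chr15:96687392-96699730, minus strand) had a scaled CPM of 236, 264 and 314 in control, 361, 283 and 317 with the *Slc2a1* gRNA, and 310, 357 and 497 with the 5 gRNAs. Replicate 3 was the highest of the 5 gRNA samples, and replicate 1 overlapped the controls. The log2 fold change was 0.50 ± 0.15 (SE, edgeR adjusted p = 0.0373), with an adjusted p of 0.0594 when replicates were not paired. The call was lost without any 1 control replicate, *Slc2a1* gRNA replicate 2, or replicate 2 or 3 of the 5 gRNAs (adjusted p = 0.0513 to 0.199), and under total count scaling (adjusted p = 0.0654).

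*Slc38a10* (chr11:120103960-120151346, minus strand) had a scaled CPM of 272, 306 and 311 in control, 261, 241 and 274 with the *Slc2a1* gRNA, and 237, 235 and 222 with the 5 gRNAs. The 5 gRNA samples lay below all others. Its log2 fold change was -0.36 ± 0.11 (SE, edgeR adjusted p = 0.0461). The call was lost without any 1 control replicate, or replicate 2 or 3 of either deleted population (adjusted p = 0.0613 to 0.223), and with only the groups compared (adjusted p = 0.0584). *Slc38a6*, the most abundant member, had 3966, 3397 and 3590 in control, 5221, 4287 and 3519 with the *Slc2a1* gRNA, and 3657, 3780 and 4374 with the 5 gRNAs. These groups overlapped, and its log2 differences from control were 0.24 ± 0.15 (SE, adjusted p = 0.365) and 0.12 ± 0.15 (SE, adjusted p = 0.631). The lysosomal *Slc38a7* had 41.5, 41.8 and 40.4 in control, 48.1, 37.4 and 36.9 with the *Slc2a1* gRNA, and 42.8, 46.1 and 46.9 with the 5 gRNAs. It was not called in any comparison, with a log2 difference of 0.14 ± 0.12 (SE, adjusted p = 0.455) with the 5 gRNAs.

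With the *Slc2a1* gRNA alone, 3 of 26 members were called, where 4.64% of all genes were, 2.25% higher and 2.39% lower. *Slc1a5* rose and *Slc43a2* fell, *Slc1a1* was called only with the limit given above, and without the 4 members named above the count was 2 of 22. The members' median log2 fold change was 0.0302, against -0.00135 over all genes. Scaled counts of these groups did not overlap for 7 of the 26 members, *Slc1a1* among them, where 26.2% of all genes had no overlap. *Slc43a2* (chr11:75531694-75577575, plus strand), which encodes the branched-chain and aromatic amino acid carrier LAT4, had a scaled CPM of 9.74, 7.32 and 6.64 in control, 2.79, 4.11 and 4.47 with the *Slc2a1* gRNA, and 5.41, 7.18 and 4.78 with the 5 gRNAs. The *Slc2a1* gRNA samples lay below all others. Its log2 fold change was -1.06 ± 0.25 (SE, edgeR adjusted p = 0.035) with the *Slc2a1* gRNA and -0.46 ± 0.24 (SE, adjusted p = 0.218) with the 5 gRNAs. None of the 3 calls held without any 1 control replicate or without *Slc2a1* gRNA replicate 1 or 2, with adjusted p-values of 0.087 to 0.22 for *Slc43a2* and 0.129 to 0.205 for *Slc1a5*. Their log2 fold changes in those 5 edgeR fits were -1.22 to -0.77 and 0.49 to 0.63, and 3 to 8 members had an unadjusted p under 0.05. Over all genes the calls were 11 to 72 in these fits, against 642 with every library. Total count scaling also lost the call of *Slc1a5* (adjusted p = 0.061). In the other direction, the fit of only these groups called 8 members, adding *Slc1a4*, *Slc6a9* and *Slc7a1* as higher and *Slc38a9* and *Slc3a2* as lower, with 2268 calls over all genes, and without the low count filter 5 were called, adding *Slc7a1* as higher and *Slc38a9* as lower, with 1448 over all genes.

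Between the deleted populations 3 of 26 members were called, where 2.31% of all genes were. All of them, *Slc1a4*, *Slc38a3* and *Slc3a2*, were higher with the 5 gRNAs, the direction of 1.36% of all genes (0.947% were lower), and without the 4 members named above the count was 2 of 22. The median log2 fold change of the members was 0.104, against 0.00344 over all genes. Scaled counts of these populations did not overlap for 7 of the 26 members, *Slc38a3* among them, where 20.9% of all genes had no overlap. *Slc6a9* differed by 0.50 ± 0.13 (SE, adjusted p = 0.0683) and *Slc7a1* by 0.43 ± 0.17 (SE, adjusted p = 0.183). Without the low count filter 7 members were called, adding *Slc6a9*, *Slc7a1* and *Slc7a11* as higher and *Slc7a14* as lower, with 974 calls over all genes against 319. The comparisons with control share the control samples, so their calls are not independent.

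**Figure D3:**
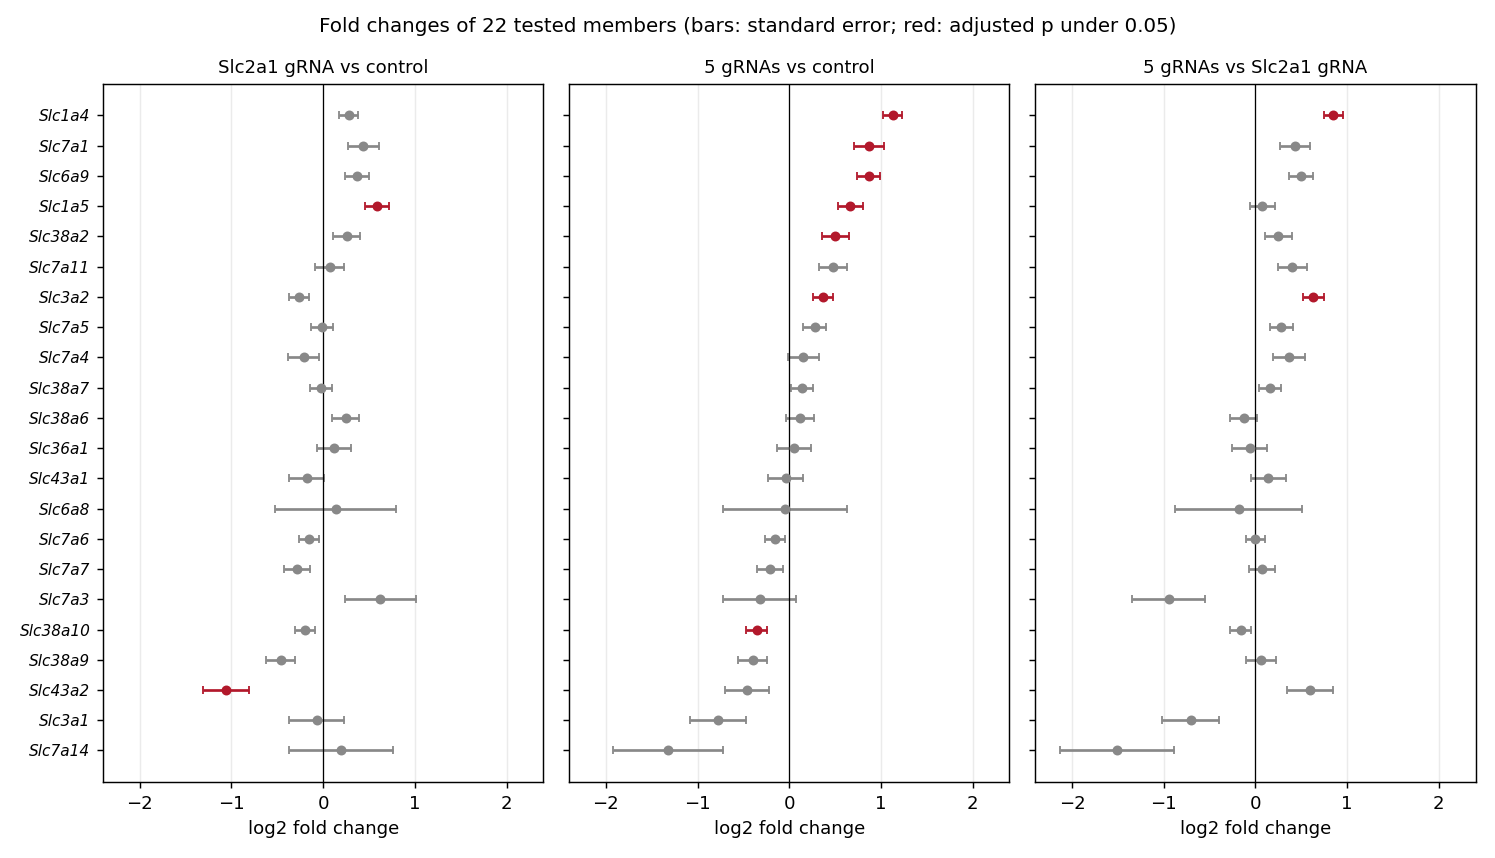
Log2 fold changes with standard errors of 22 tested members in the 3 comparisons, ordered by their value with the 5 gRNAs against control, with members at an adjusted p under 0.05 in red. *Slc38a3*, *Slc1a1*, *Slc6a6* and *Slc38a1* are left out because a group had no sample above the filter on low counts, and the widest bars belong to members with few counts such as *Slc6a8*.

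Some groups that were apart in scaled counts overlapped in TPM. Summed over the members, TPM was 1888 ± 229 (SD, n = 3) in control, 1946 ± 255 (SD, n = 3) with the *Slc2a1* gRNA and 2203 ± 483 (SD, n = 3) with the 5 gRNAs, so the totals overlapped. With the 5 gRNAs, *Slc1a4* and *Slc38a10* kept apart from control in TPM as well. *Slc1a1* and *Slc38a3* were also apart, but they entered the test only through groups where they are high, so this is no support. For *Slc1a1* the nearest values were 0.167 TPM in replicate 1 of the 5 gRNAs and 0.163 TPM in control replicate 3. By contrast, *Slc1a5*, *Slc3a2*, *Slc6a9* and *Slc7a1* overlapped. *Slc7a1*, for instance, had 15.4, 28.6 and 35.8 TPM with the 5 gRNAs, of which replicate 1 lay within the control range. That replicate also had the highest mitochondrial share, and the part of this share in its TPM was not tested. By limma on log2(TPM + 1), 1 of the 9 calls against control remained, that of *Slc38a3*, where calls over all genes were 139 against 2204 by edgeR. *Slc38a3* passed the filter on low counts only through the samples where it is high, so this call is no support. *Slc1a4* was at 1.02 on that scale (adjusted p = 0.0517).

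Amino acid carriers outside these families were counted in the same way, but only in the edgeR fit of all 9 samples. Whether calls in this list hold in the alternative fits was not tested. Of 22 such carriers, mostly mitochondrial and lysosomal, 15 were tested. With the 5 gRNAs 1 was called, the mitochondrial ornithine carrier *Slc25a15* at a log2 fold change of 0.41 (edgeR adjusted p = 0.0475), where 15.9% of all genes were called. In the other comparisons edgeR called 0 of 15, where 4.64% of all genes were called with the *Slc2a1* gRNA and 2.31% between the deleted populations. The medians of this list were 0.109, -0.0179 and -0.0392 in the order *Slc2a1* gRNA against control, 5 gRNAs against control and 5 gRNAs against *Slc2a1* gRNA.

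Genes tied to the amino acid response, regulators and others such as *Asns*, made up the other list. They are not specific to amino acid shortage, and the cause of their changes was not tested. Of 15 such genes, all tested, 11 were higher with the 5 gRNAs than in control and none was lower, where 8.49% of all genes were higher and 7.44% lower. Their median log2 fold change was 0.771, against 0.00717 over all genes. They include *Atf4* itself at 0.44 (edgeR adjusted p = 0.0248), *Trib3*, a pseudokinase induced by ATF4, at 0.86 (edgeR adjusted p = 0.000604), and *Nupr1*, a stress-induced chromatin protein, at 0.97 (edgeR adjusted p = 0.00018). With the *Slc2a1* gRNA 3 were called, where 4.64% of all genes were, and of these *Ddit4*, an inhibitor of mTORC1, rose by 1.11 (edgeR adjusted p = 0.0033) and *Atf5* by 0.93 (edgeR adjusted p = 0.03), while *Ddit3*, which encodes CHOP, had a log2 fold change of -0.75 (edgeR adjusted p = 0.0187). Between the deleted populations 6 of 15 were higher with the 5 gRNAs, where 1.36% of all genes were, *Ddit3* by 1.58 on the log2 scale (edgeR adjusted p = 0.000221). The amino acid depletion sensor *Eif2ak4*, which encodes GCN2, was not called in any comparison. Nor was *Asns*, at a log2 difference of 0.31 with the 5 gRNAs against control (adjusted p = 0.0742). Calls in this list also come only from the edgeR fit of all 9 samples, and whether they hold in the alternative fits was not tested. Over all genes, calls with the 5 gRNAs against control were 2204 in that fit. They were 631 without control replicate 1 and 139 by limma on log2(TPM + 1).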

How the data were processed

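RNA of 5TGM1-Cas9 cultures was analysed in 9 samples, grouped by the gRNA treatment and replicate number in their labels. The authors made cDNA with oligo-dT primers, sequenced paired reads and quantified genes with Salmon (version 1.5.1 in the submitters' processing notes) on Galaxy; the annotation is not given in the sources used here. The authors deposited estimated counts and TPM per gene, and 47.7% of the nonzero estimated counts had a fractional part. The cDNA kit does not mark strand. Salmon divides reads between similar genes, so levels of close paralogs are uncertain. Replicate samples differed by more than sampling noise.

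After rounding, the counts entered edgeR 4.0.16 under R 4.3.3 (quasi-likelihood test, TMM factors, default low count filter, replicate number as a block, all 9 samples in 1 fit). SE were derived from the F statistic, and 95% intervals use the t quantile at the total degrees of freedom of that test. The study reports biological replicates, and a supplementary figure legend names a paired test. Same-numbered samples deviated together between control and *Slc2a1* gRNA cultures (r = 0.24, 0.18 and 0.34), but not throughout between control and 5 gRNA cultures (0.21, -0.11 and 0.19) or between the deleted populations (-0.16, -0.13 and -0.03). Alternatives were DESeq2 1.42.0, no block, total count scaling, no filter, only the groups compared, a 2-fold minimum, limma 3.58.1 on log2(TPM + 1) and log2(TPM + 0.1), other expression minimums, and leaving out each sample.

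Values in every sample are given for members called in a comparison with a mean of at least 1 TPM in a group and for the 10 highest in control cells. Members called at lower levels are given by counts. Members, lists and tests were chosen with earlier results of these data known. Positions are from GENCODE M21 on GRCm38, in which 49351 of 53077 gene names and all 61 members matched. Promoters are from RefSeq. Counting intervals and floors cover counting error only.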

Additional observations from a re-analysis of the deposited data

Results flagged for a closer look

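Members whose effect differed between the deleted populations by the test of the difference itself were *Slc1a4* and *Slc3a2*. *Slc38a3* also passed, but it entered the test only through the samples where it is high, so its test result is no support. On the log2 scale the 5 gRNA cultures exceeded the *Slc2a1* gRNA cultures by 0.85 for *Slc1a4* and by 0.63 for *Slc3a2*. The fitted value for *Slc38a3* was 9.78, which depends on edgeR's prior count because the gene had no count with the *Slc2a1* gRNA; with 3 counts over that group as the floor, the gene was at least 99.5-fold higher.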

How the results depend on the processing

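Calls are counted in the order *Slc2a1* gRNA against control, 5 gRNAs against control and 5 gRNAs against *Slc2a1* gRNA, with 3, 9 and 3 members called by edgeR. With DESeq2, which gave *Slc1a1* no adjusted p in the first of these, they were 2, 10 and 4, with total counts 2, 7 and 3, with no filter on low counts 5, 12 and 7, and with only the groups compared 8, 8 and 2. Over all genes, calls were 642, 2204 and 319 by edgeR, 1255, 2569 and 758 with DESeq2, 737, 1963 and 295 with total counts, 1448, 2751 and 974 with no filter, and 2268, 2233 and 116 with only the groups compared. With a minimum of 2-fold the members called were 2, 3 and 1, for which no count over all genes is given. By limma on log2(TPM + 1) the members called were 0, 1 and 1, and on log2(TPM + 0.1) 0, 2 and 1. Calls over all genes were 2, 139 and 8 on the former scale and 3, 177 and 19 on the latter. For the counts of 0, 5 and 6 members had an unadjusted p under 0.05 by limma. Leaving out each sample in turn gave 0 to 4, 4 to 10 and 2 to 6, where calls over all genes ran from 11 to 1291, 631 to 2559 and 42 to 383. For the 5 gRNAs against control 4 members were called without replicate 3 of the 5 gRNAs and 5 without control replicate 2. Between the deleted populations 6 were called without replicate 1 of the 5 gRNAs and 5 without *Slc2a1* gRNA replicate 1. Without the replicate block the counts of members were 3, 8 and 3, and the pairing changed no member's call other than that of *Slc38a2*. Calls over all genes without the block were 534, 1885 and 129, against 642, 2204 and 319 with it. A minimum of 0.5 TPM, 5 TPM or 10 counts in every control replicate gave 20, 15 or 22 expressed members in place of 19.

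Signs changed only for members not called in the comparison. For the 5 gRNAs against control, *Slc38a7* was at -0.11 and -0.12 by limma with pseudocounts of 1 and 0.1. Between the deleted populations *Slc7a6* was at -0.0027 by DESeq2, -0.0037 without the block and -0.013 with only the groups compared, and leaving out each sample gave -0.0502 to 0.10 for *Slc7a6*, -0.30 to 0.73 for *Slc1a1*, -0.10 to 0.18 for *Slc1a5*, -0.29 to 0.0203 for *Slc38a6*, -0.037 to 0.26 for *Slc38a6* with the 5 gRNAs against control, -0.17 to 0.052 for *Slc38a7* with the *Slc2a1* gRNA against control and -0.14 to 0.065 for *Slc7a5* in the same comparison. The cause of these shifts was not tested. Total count scaling moved the median of all genes to -0.0951 for the *Slc2a1* gRNA against control, and limma moved it to -0.102 and -0.157, and the higher share of all calls went from 48.4 to 23.9% with total counts. With total counts it went from 53.3 to 41.9% for the 5 gRNAs against control and from 58.9 to 69.5% between the deleted populations. Depth limits the 35 untested members, which had at most 14 counts in a sample.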
